A study of Mus musculus with 2 samples.

Results

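The regions described here are E2F1 peaks that lie on the transcription start site (TSS) of 1 gene. The data are a list of genomic regions that the authors' peak caller found enriched in an E2F1 chromatin immunoprecipitation (ChIP) over input chromatin. Around each peak's summit the list gives a window of 301 bp and a distance for each gene it names. For promoter entries this is the distance from the window to the TSS. A peak was kept when exactly 1 of its gene entries was of the promoter class and that entry had a distance of 0, so that the window held the TSS. This rule used position and not strength. It left 1147 of 5667 listed peaks (20.2%), or 43.7% of the 2625 peaks with a promoter entry. Each of the 1147 peaks named a different gene at its promoter.

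The E2F1 ChIP library was made with the c-20 antibody from primary hepatocytes, the cells that make up most of the liver, and the input library from chromatin of such cells without a pull-down. Both came from mice of strain C57Bl6J whose cells had been infected with the adenovirus Ad-E2F1, which makes them overproduce E2F1, and were harvested 36 h later. Cells without the vector were not analysed here, and the labels used here state neither age nor sex of the mice. The series text speaks of 2 replicates of 2 combined ChIPs each, but they cannot be separated in the deposited list. No value below therefore has a replicate error, no test between samples was possible, and the intervals given cover counting error over peaks or promoters only. Peaks of 1 list are not replicates, so differences between groups of peaks are descriptions of this list. Expression was not measured, so the identity of the cells could not be checked against markers.

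E2F1 binds DNA as a dimer with a DP protein and is held in check by the retinoblastoma protein, which is released from it when cells commit to dividing. Its known targets are genes of DNA replication and of the cell cycle. Many of them have promoters rich in CpG with an E2F site near the start of transcription. Adult hepatocytes rarely divide, and their own programme is one of metabolism and secreted proteins.

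The promoters of the strongest of these peaks are shown first, for the E2F words that most of them hold. An E2F word is here 1 of the 8-base words TTTCCCGC, TTTCGCGC, TTTGGCGC or TTTGCCGC on either strand. Of the 15 on-TSS peaks with the highest fold, 11 belonged to genes with a single promoter window in the RefSeq table of build GRCm38.p6. Of these 11 windows, 9 held an E2F word, against 11.7% of all on-TSS promoters with 1 window and 2.32% of all windows. A window runs from 250 bases before to 50 bases after the RefSeq start. The whole window is printed for the strongest peak and a stretch around the word for 7 others. All are written along the direction of the gene, with E2F words in capitals. In the window of Cdk1 the capitals also mark the 6-base word TTTGAA, known as the cell cycle homology region (CHR) of genes used in mitosis.
Cdk1, chr10:69352863-69353162, minus strand: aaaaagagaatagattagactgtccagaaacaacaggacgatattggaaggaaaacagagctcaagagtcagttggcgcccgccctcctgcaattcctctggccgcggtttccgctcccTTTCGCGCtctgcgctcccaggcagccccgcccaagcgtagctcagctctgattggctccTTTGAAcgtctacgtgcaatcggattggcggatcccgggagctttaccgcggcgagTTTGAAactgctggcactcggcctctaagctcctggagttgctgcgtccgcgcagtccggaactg
Mcm3, chr1:20820263-20820313, minus strand: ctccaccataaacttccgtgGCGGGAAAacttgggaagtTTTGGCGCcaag
Psmc4, chr7:28050142-28050189, minus strand: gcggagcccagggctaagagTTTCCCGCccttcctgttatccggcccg
Nop58, chr1:59684878-59684925, plus strand: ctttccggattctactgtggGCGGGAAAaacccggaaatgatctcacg
Ppil1, chr17:29264174-29264221, minus strand: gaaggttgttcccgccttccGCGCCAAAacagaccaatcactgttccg
Ltn1, chr16:87432705-87432752, minus strand: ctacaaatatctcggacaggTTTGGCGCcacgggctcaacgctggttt
Cdc25a, chr9:109875492-109875539, plus strand: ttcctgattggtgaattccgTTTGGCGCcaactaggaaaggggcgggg
Cdca7, chr2:72476128-72476175, plus strand: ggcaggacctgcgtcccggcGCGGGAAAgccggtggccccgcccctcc

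In Mcm3 both words lie downstream of the RefSeq start, beginning 19 and 38 bases after it. The words of Cdc25a and Cdca7 begin 67 and 71 bases before the start, that of Psmc4 77 and that of Nop58 108. Farther away are those of Ltn1 at 126 bases, Cdk1 at 131 and Ppil1 at 230 bases before the start. A match of letters is a description of the promoter and does not show that E2F1 sat on it. The peaks were placed on build mm9 and matched to these windows by gene name only.

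The strongest on-TSS peak lay at Cdk1, the cyclin-dependent kinase of mitotic entry, on chromosome 10 from 68815641 to 68815941 (mm9). It had a fold of 45.17 over input, 511 tags and a pileup height of 332. Fold, tags (reads counted in the called region) and height (the highest pileup of reads) are the authors' values for each peak. Mcm3, a subunit of the Mcm ring that unwinds DNA, had a fold of 38.65 with 656 tags. Psmc4, an ATPase of the proteasome cap, followed with a fold of 38.25 and 621 tags. Genes of RNA processing stood beside these cell cycle and protein turnover genes. Nop58, a core protein of the particles that modify ribosomal RNA, had a fold of 38.21 and the most tags of all on-TSS peaks, 1027, with a height of 768. Ppil1, a cyclophilin of the spliceosome, had a fold of 36.81 and 422 tags.

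Hist2h4, which encodes histone H4, had a fold of 37.78 and 925 tags in a region of 3999 bp, the longest in the list. Its coding sequence has near-identical copies elsewhere, and no source used here says how reads with several matches were treated, so its value is uncertain. Mapk7, the gene of the kinase ERK5, had a fold of 36.07 with only 282 tags, the 188th highest tag count. Top2a, the topoisomerase of replicated chromosomes, had a fold of 34.97 and 782 tags, and its single RefSeq window held no E2F word. Ltn1, a ubiquitin ligase that clears stalled ribosomes, had 33.54 and Ttc32 32.95. On chromosome X from 99352300 to 99352600, Ercc6l, a helicase of anaphase DNA bridges, had a fold of 32.61. The list of 15 ended with Cdc25a at 31.66, the mitotic kinase Plk1 at 30.82, Cdca7 at 30.56 and the transcription elongation factor Elof1 at 29.75. Of the 100 peaks of highest fold in the whole list, 41 were on-TSS peaks.

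The 5 lowest folds belonged to Rbm27 (2.69), Preb (2.77), Irgm1 (2.79), and Krt18 and Oraov1 (3.01 each). These peaks were low in fold without being low in tags throughout. Rbm27, which encodes an RNA-binding protein, had 199 tags in a region of 3098 bp, with a height of 30. Preb, an activator of export from the endoplasmic reticulum, had 198 tags in a region of 2610 bp, with a height of 37. Krt18, the keratin of simple epithelia including hepatocytes, had 89 tags and a height of 27.

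On-TSS peaks were stronger than the rest of the list. Their median fold was 6.86 (95% interval of the median 6.67 to 7.12, n = 1147), against 4.54 in the 4520 other peaks (4.47 to 4.61), a ratio of 1.51. The quartiles of the on-TSS peaks were 5.26 and 9.80, and their range was 2.69 to 45.17. A fold of at least 10 was reached by 277 on-TSS peaks, or 24.1% (exact binomial 95% interval 21.7% to 26.7%), where 12.8% of all listed peaks did so. A false discovery rate of at most 1% was found at 717 of them (62.5%, 59.6% to 65.3%), against 39.8% of all listed peaks. From the tenth of the list with the lowest folds to the tenth with the highest, the share of on-TSS peaks was 3.0%, 3.53%, 6.01%, 9.70%, 20.8%, 19.4%, 30.9%, 35.2%, 35.1% and 38.8%.

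**Figure D1:**
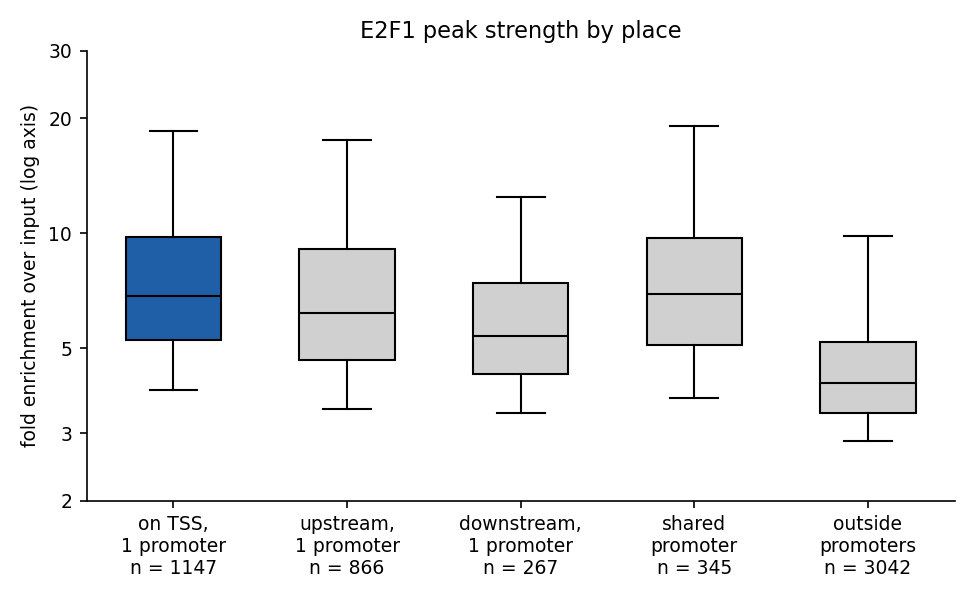
Fold enrichment over input (log axis) of the E2F1 peaks by place. Boxes show quartiles and median, whiskers the 5th and 95th percentiles over peaks. The on-TSS peaks (median 6.86) sit level with the peaks at shared promoters (6.93) and above the peaks outside promoters (4.07).

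Among promoter peaks the contrast was smaller. Single-promoter peaks upstream of the TSS had a median fold of 6.20 (n = 866, 95% interval 5.89 to 6.5) and those downstream 5.38 (n = 267, 5.10 to 5.62). The on-TSS median was 1.11 and 1.28 times these. The 345 peaks at promoters shared by several genes had a median of 6.93 (6.64 to 7.40), and their interval overlaps that of the on-TSS peaks. Shared promoters also had more tags, with a median of 159 (153 to 170) in on-TSS peaks and 197 (179 to 210) in shared ones. Their called regions were longer too, with medians of 1799 bp on the TSS and 2114 bp at shared promoters. Tags per kb of region were close, with medians of 81.2 (quartiles 68.1 and 103) and 85.2 (70.1 and 105) in the same order. A fold of at least 10 was reached by 21.1% of upstream, 12.4% of downstream and 24.3% of shared peaks. A false discovery rate of at most 1% was found at 59.0%, 52.4% and 66.4% in the same order.

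The edge of the rule was not an edge in strength on the upstream side. All on-TSS peaks have a distance of 0 by definition. The 212 peaks whose window ended 1 to 50 bp upstream of the TSS had a median fold of 6.96 (95% interval 6.03 to 7.84), and 25.9% of them reached a fold of 10. On the downstream side the 33 peaks within 1 to 50 bp had a median of 5.56 (4.80 to 7.05) and 18.2% reached a fold of 10. Beyond 350 and up to 850 bp the medians were 5.82 upstream and 4.90 downstream.

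**Figure D2:**
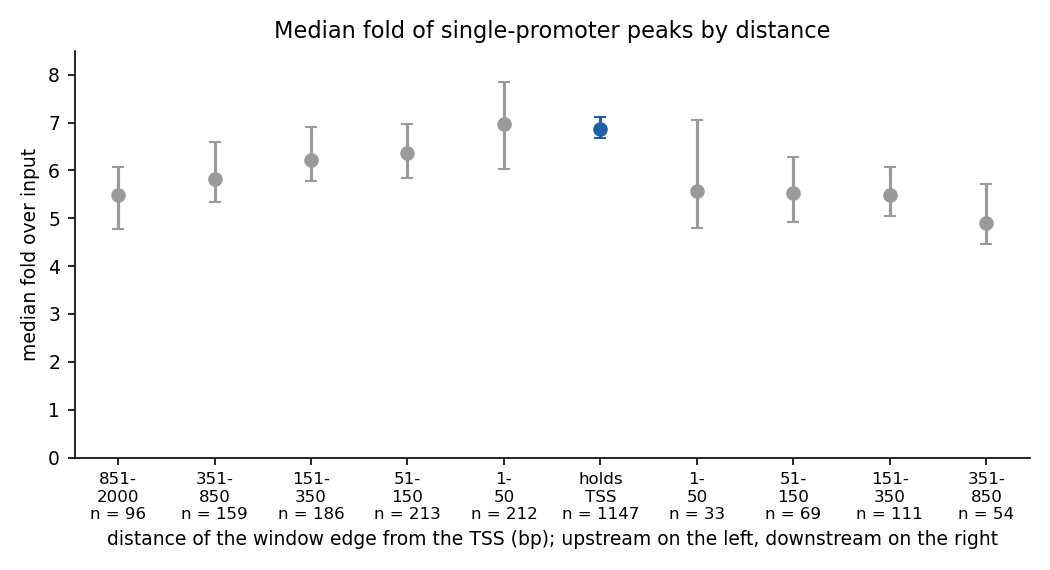
Median fold of single-promoter peaks by the distance between the window's edge and the TSS, from far upstream (left) to downstream (right). Bars are 95% intervals of the median over peaks. The on-TSS median of 6.86 is level with the nearest upstream bin (6.96) and above each downstream bin, where the highest median is 5.56.

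On-TSS peaks were also the tallest for their tags among these groups. Pileup height was a median of 44.6% of the tag count in on-TSS peaks (quartiles 33.3% and 56.7%). The same share was 40.6% upstream, 32.3% downstream, 39.3% at shared promoters and 30.0% outside promoters. The called regions were 1799 bp long in the median on the TSS, 1796 bp upstream and 2106 bp downstream. Height divided by fold had a median of 9.40 on the TSS and 9.48 in all other peaks, and between 9.43 and 9.75 in each other group.

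Within the on-TSS peaks, fold followed height more than tags. Across the 1147 peaks, Spearman's rho with fold was 0.81 for height, 0.41 for tags and 0.01 for the length of the region. These points share the same libraries, and fold, height and tags come from the same reads. The peaks were also divided by fold into 4 classes of equal size. In the class of lowest fold (2.69 to 5.26) the median peak held 136 tags with a height of 42, or 31.3% of the tags. The class of highest fold (9.82 to 45.17) had medians of 250 tags and a height of 128, or 54.3% of the tags.

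Promoter sequence was then described for the on-TSS peaks. Of the 1147 genes, 1140 (99.4%) were matched to a RefSeq gene, 937 had at least 1 promoter window in the table, and the 785 with exactly 1 window (68.4%) were used. These promoters were rich in CpG. Their median ratio of observed to expected CpG was 0.833 (quartiles 0.698 and 0.953), against 0.464 for the 12790 windows of coding genes with no promoter peak. A ratio of at least 0.6 was reached by 87.6% of the on-TSS promoters and 41.2% of those without a promoter peak. Median GC content was 59.7% and 54.7% in the same order. The promoters of upstream peaks were richer in GC still, with a median of 63.7%. Median CpG ratios were 0.855 for upstream, 0.740 for downstream and 0.843 for shared promoters, so a high ratio was not particular to on-TSS peaks.

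An E2F word stood in 92 of the 785 on-TSS promoters, or 11.7% (exact 95% interval 9.55% to 14.2%), against 2.32% of the 22862 windows of all genes. Over the 14731 windows of coding genes alone the share was 2.91%. TTTCCCGC was the most frequent, in 49 on-TSS promoters (6.24%, against 1.12% of all), ahead of TTTGGCGC in 25, TTTCGCGC in 12 and TTTGCCGC in 9. The share was 8.80% (6.58% to 11.5%) for upstream peaks, 9.66% (7.08% to 12.8%) at shared promoters and 1.16% (0.141% to 4.14%) for downstream peaks. Since E2F words contain CpG, the share was also taken among windows with a CpG ratio of at least 0.6. There it was 12.2% of 688 on-TSS promoters (9.86% to 14.9%) and 3.70% of 5271 promoters of coding genes with no promoter peak (3.21% to 4.24%). Leaving out the first T gives the 7-base words that lie inside the 8-base ones. Their share was 34.6% on the TSS, 9.55% over all windows and 12.0% over coding windows.

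Stronger on-TSS peaks more often had the word. In 4 fold classes of these 785 peaks, lowest first, 5.58%, 5.61%, 11.7% and 24.0% of promoters held it. The lowest class spans folds of 2.77 to 5.33 and the highest 10.06 to 45.17. Conversely, peaks at promoters with the word had a median fold of 10.21 (95% interval 8.54 to 11.83, n = 92), against 6.75 (6.44 to 6.97, n = 693) without it. Of those with the word 51.1% reached a fold of 10, and of those without it 21.9%. Most strong peaks still had no 8-base word. Of the 199 that reached a fold of 10, 152 lacked the 8-base word in this window, Top2a and Plk1 among them. A 7-base word stood in 98 of the 199 (49.2%), against 34.6% of all on-TSS promoters.

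**Figure D3:**
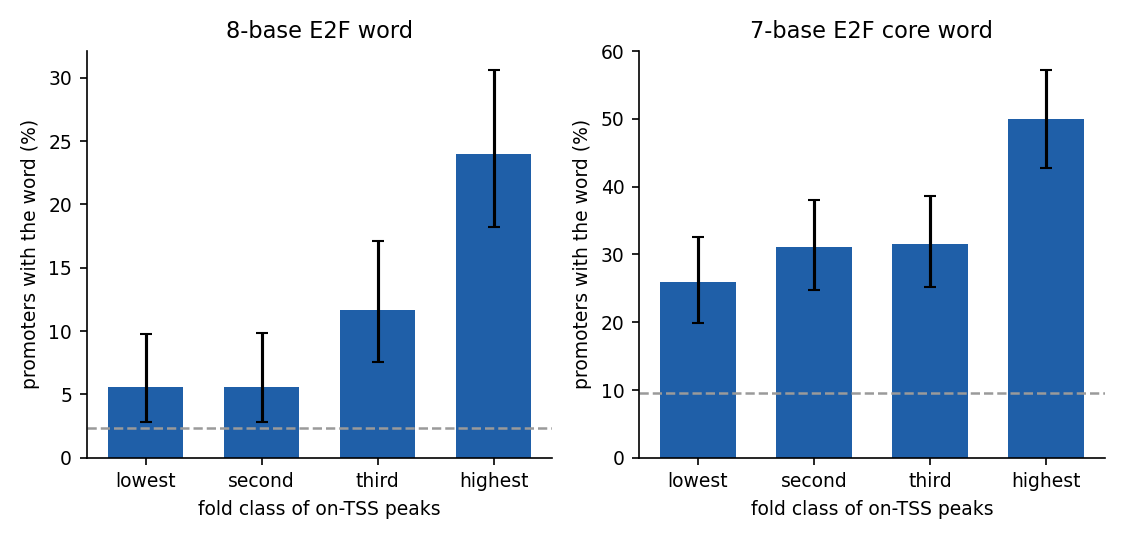
Share of on-TSS promoters that hold an E2F word, in 4 fold classes of the 785 peaks, for the 8-base words (left) and the 7-base core words (right). Bars are shares in percent with exact 95% intervals, and the dashed line is the share of all 22862 promoters (2.32% and 9.55%). The highest class stands at 24.0% (47 of 196) and at 98 of 196, above the other classes.

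The 98 E2F words in these promoters were spread over the window, with 49 on the strand of the gene. Their median position was 67 bases upstream of the RefSeq start, written as -67 bp. Within the 60 bases before the start lay 21 of the 98 (21.4%), and 22.3% of the 556 words in all promoters. The fullest bin of 20 bp was that from -70 to -50 bp, with 14 words or 1.78 per 100 promoters, against 0.166 per 100 in all promoters. More than 1 word stood in few on-TSS promoters, 2 words in 2 of them, Mcm3 included, and 3 words in 2.

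**Figure D4:**
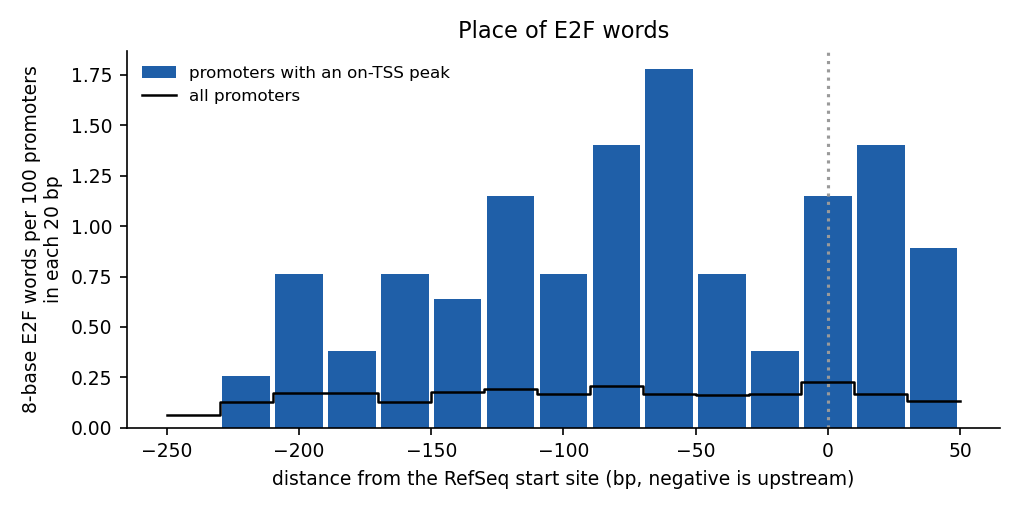
Place of the 8-base E2F words relative to the RefSeq start site, in bins of 20 bp. Bars count words per 100 on-TSS promoters (n = 785) and the line those per 100 promoters of all genes (n = 22862). The bars exceed the line in each bin but the first, which holds 0 words of on-TSS promoters, and the highest bar is 1.78 at -70 to -50 bp.

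Other promoter words were also counted. CCAAT, the site of the factor NF-Y, stood in 400 of 785 on-TSS promoters (exact 95% interval 47.4% to 54.5%) and 38.2% of all windows. The ETS word CCGGAAG stood in 24.3% and 9.12%, and the NRF1 word GCGCNTGCGC in 13.5% and 4.75%. The GC box GGGCGG was found in 69.7% and 35.2%. All windows include those of non-coding genes. Over the 14731 coding windows the shares were 39.6% for CCAAT, 11.8% for ETS, 6.52% for NRF1 and 45.3% for the GC box. The cyclic AMP response element TGACGTCA was found in 5.61% of on-TSS promoters (4.10% to 7.45%) and in 1.85% of all windows. It stood in 2.51% of upstream (1.38% to 4.18%), 3.49% of downstream (1.29% to 7.44%) and 2.25% of shared promoters (1.08% to 4.09%). The downstream interval overlaps that of the on-TSS promoters. A TATA word (TATAAA or TATATA) was rarer on the TSS than in all windows, at 9.94% against 18.6%. It stood in 7.72% of upstream, 9.30% of downstream and 4.94% of shared promoters. Those 3 groups also held the other words. In the same order CCAAT stood in 49.7%, 37.8% and 48.5% and ETS in 17.4%, 22.1% and 27.0%. For NRF1 the shares were 14.0%, 11.0% and 15.3%, and for the GC box 77.6%, 65.1% and 70.1%. The comparison was repeated among promoters with a CpG ratio of at least 0.6, between on-TSS promoters and those of coding genes with no promoter peak. CCAAT stood in 49.6% and 35.4% there. The gaps were narrower for ETS, at 25.9% and 19.0%, and for NRF1, at 15% and 12.2%. For the cyclic AMP response element the shares were 6.25% (4.56% to 8.33%) and 3.81% (3.31% to 4.37%). The GC box and TATA gaps turned round there, with overlapping intervals, at 72.2% and 74.2% for the GC box and 9.45% and 7.21% for TATA. CHR (TTTGAA or TTCGAA) stood in 17.8% of all on-TSS promoters (15.2% to 20.7%) and 19.2% of all promoters of coding genes with no promoter peak (18.6% to 19.9%). In CpG-rich promoters its order was the opposite and the intervals did not overlap, at 17.4% (14.7% to 20.5%) on the TSS and 11.6% (10.7% to 12.4%) without a promoter peak. Median folds with and without the word were 7.07 and 6.88 for ETS, 7.06 and 6.94 for NRF1, and 6.78 and 7.29 for the GC box, and their intervals overlapped. For CHR they were 7.58 (7.12 to 8.51, n = 140) with the word and 6.81 (6.51 to 7.10, n = 645) without it. The share of promoters with CHR was 11.7%, 16.3%, 20.9% and 22.4% in the 4 fold classes, lowest first. For CCAAT the median folds were 7.25 (6.87 to 7.71) with the word and 6.59 (6.22 to 7.10) without it, with overlapping intervals. Its shares in the same classes were 44.2%, 49.5%, 55.1% and 55.1%.

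The on-TSS genes were next read by function, with 16 lists holding 605 genes. An on-TSS peak stood at 118 of them (19.5%), against 5.20% of the 21900 protein-coding genes of the RefSeq table. The lists were chosen with earlier results of these data known, so their counts are no independent evidence of a theme. Up to 6 genes of highest fold are named per list, and genes named as a list's lowest or as exceptions were chosen after their values were seen. Each list's count is read beside 5.20% and each median beside 6.86, the median fold of all on-TSS peaks.

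Genes that load and start the replicative helicase had an on-TSS peak in 11 of 28 cases (39.3%), with a median fold of 13.77. Behind Mcm3 came Ticrr, the treslin gene that helps fire origins, with a fold of 23.86 and 228 tags. Mcm6 had 19.06, the helicase loaders Cdc6 and Cdt1 16.63 and 14.78, and Gins3, of the complex that activates the helicase, 13.77. The lowest of the 11 was Orc2, of the origin recognition complex, with a fold of 4.83 but 284 tags. A further 7 genes of the list had a promoter peak that was shared or lay beside the TSS.

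For DNA polymerases, the sliding clamp and nucleotide supply the count was 16 of 41 (39.0%), and the median fold of 16.29 was the highest of the 14 lists with an on-TSS peak. Rpa2, which coats single-stranded DNA, had a fold of 28.82 with 634 tags. The catalytic primase subunit Prim1 had 23.11, the fork protection factor Tipin 21.42 and the clamp loader subunit Rfc4 18.40. Pold3, a subunit of DNA polymerase delta, had a fold of 17.99 with 424 tags. Of the 16, 13 reached a fold of 10, and the 3 that did not were the clamp loader subunits Rfc1 (8.0), Rfc5 (7.35) and Rfc2 (5.67).

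DNA repair and checkpoint genes had on-TSS peaks at 13 of 51 (25.5%), with a median of 11.71, and all 13 lay above 6.86. The helicase gene Blm had a fold of 21.09, Xrcc2, a gene of recombination repair, 19.06 and Clspn, which helps to activate the kinase Chek1, 17.03. Brca2 had 14.58 and Chek1 14.06.

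Of 38 genes of G1/S control, the E2F family and the pocket proteins, 5 had an on-TSS peak (13.2%). These were Cdc25a, the phosphatase of G1/S kinases, with 31.66, Mybl2 with 18.85, Rbl1, which encodes the pocket protein p107, with 11.72, the repressor E2f7 with 7.72 and Ccna2, the gene of cyclin A2, with 7.36. For this list 12 other genes had a promoter peak that was shared or beside the TSS.

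Mitosis genes had on-TSS peaks at 23 of 58 (39.7%), with a median fold of 11.74, and 15 of the 23 reached a fold of 10. After Cdk1 and Plk1 came Kif2c, a kinesin that takes microtubules apart, with a fold of 29.45 and 451 tags. Incenp, the scaffold of the chromosomal passenger complex, had a fold of 25.31 and 438 tags. Espl1, the separase that cuts cohesin, had 18.59 and the condensin subunit Ncaph 17.01. The lowest were Cenpa, the centromeric histone, with 4.64 and 257 tags, and Mad1l1 with 4.27.

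**Figure D5:**
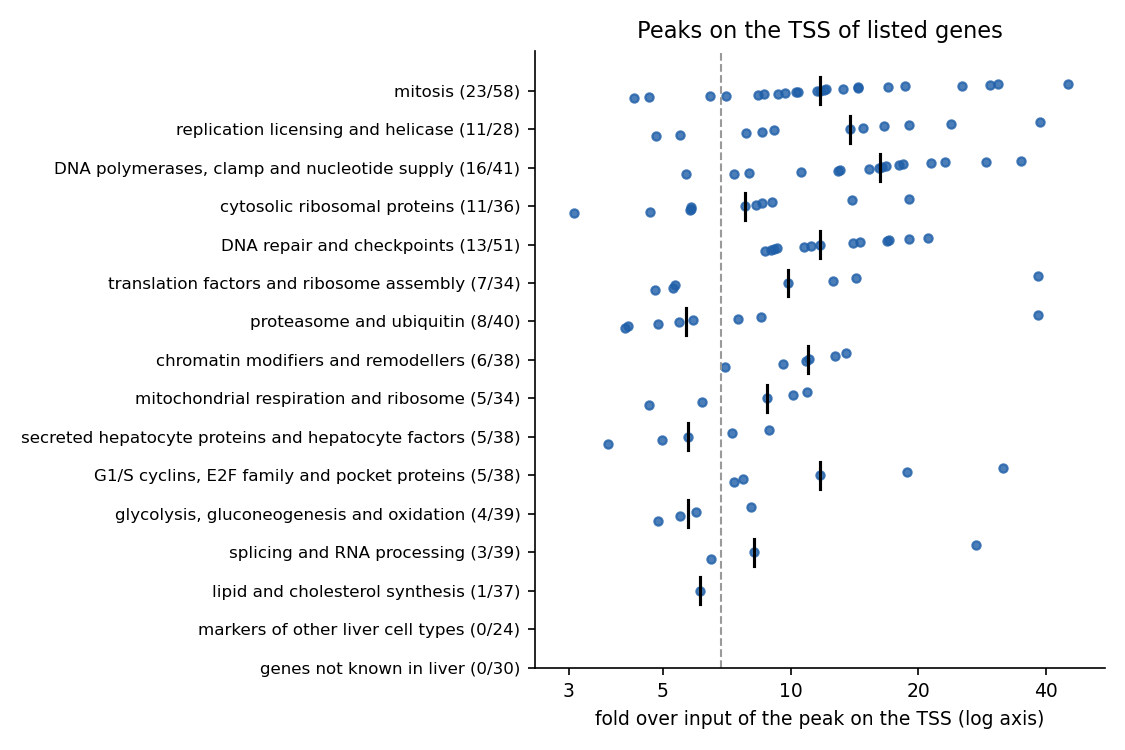
Fold over input (log axis) of the on-TSS peaks of each gene list, 1 point per gene, with the list's median as a bar and the median of all on-TSS peaks (6.86) as a dashed line. Numbers give genes with an on-TSS peak over genes in the list. Mitosis and both replication lists have the highest shares, 39.0% to 39.7%, and the bottom 2 lists have no peak.

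The E2F and CHR words were counted in the promoters of replication and mitosis genes with on-TSS peaks. Of 21 replication promoters with 1 window (both replication lists together), 10 held an 8-base E2F word (47.6%, exact 95% interval 25.7% to 70.2%) and 4 a CHR word, TTTGAA or TTCGAA (19.0%, 5.45% to 41.9%). Of 17 mitosis promoters, 2 held the E2F word (11.8%, 1.46% to 36.4%), those of Cdk1 and Cenpm, and 11 a CHR word (64.7%, 38.3% to 85.8%). The intervals of both words overlap between the gene groups, and the difference was not tested. Over all on-TSS promoters the shares were 11.7% for the E2F word and 17.8% for CHR, and over all windows 2.32% and 19.8%. Of 24 mitosis promoters without an on-TSS peak, 14 held the CHR word (58.3%, 36.6% to 77.9%) and 5 the E2F word (20.8%, 7.13% to 42.2%). The E2F word stood at 5 of 26 replication promoters without an on-TSS peak (19.2%, 6.55% to 39.4%). To show the CHR words, stretches around them are printed for Plk1 and Kif2c, the strongest mitosis peaks after Cdk1, chosen after their values were seen, with the word (TTCAAA where it lies on the other strand) in capitals and on GRCm38.p6.
Plk1, chr7:122159445-122159484, plus strand: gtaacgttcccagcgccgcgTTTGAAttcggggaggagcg
Kif2c, chr4:117178850-117178895, minus strand: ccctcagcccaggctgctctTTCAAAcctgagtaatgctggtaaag

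In Cdk1 the CHR words begin 71 and 15 bases before the RefSeq start. The word of Plk1 begins 30 bases after it, and that of Kif2c lies on the other strand, 103 bases before it.

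Chromatin regulators had on-TSS peaks at 6 of 38 (15.8%), with a median fold of 10.98. They were Dnmt1, the maintenance DNA methyltransferase, with 13.49, the remodeller subunit Smarcc1 with 12.71 and Suv39h1, a methyltransferase of histone H3, with 11.06. The helicase Hells had 10.90, Ezh2, of the Polycomb complex, 9.60 and the histone chaperone Nap1l1 6.99.

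Genes of protein synthesis and turnover had on-TSS peaks too. Cytosolic ribosomal proteins had them at 11 of 36 (30.6%), with a median of 7.82. Rpl3 had a fold of 19.02 and 585 tags and Rps19 13.96, while Rps7 had 3.09. These genes have many processed copies in the genome, so their tags are uncertain. Translation factors and ribosome assembly counted 7 of 34 (20.6%, median 9.86), led by Nop58, by Eif4a3, a helicase of the exon junction complex, with 14.26 and by Nop56 with 12.56. Proteasome and ubiquitin genes counted 8 of 40 with a median of 5.68, below that of all on-TSS peaks. Psmc4 stood far above the others of its list, whose highest was Psmb7 with 8.53. In splicing, 3 of 39 genes (7.69%) had one, among them Srsf1, which encodes a splicing factor, with a fold of 27.36 and 671 tags.

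The metabolic lists held between 1 and 5 on-TSS peaks each. In lipid and cholesterol synthesis 1 of 37 genes (2.70%) had an on-TSS peak, the desaturase gene Fads1 with a fold of 6.11. A further 7 had a promoter peak that was shared or beside the TSS. Glycolysis, gluconeogenesis and oxidation counted 4 of 39 (10.3%, median 5.74). These were Pfkfb1, an enzyme that sets the level of fructose 2,6-bisphosphate, with 8.06, the mitochondrial phosphoenolpyruvate carboxykinase Pck2 with 5.99, Tpi1 with 5.48 and Cpt2, which brings fatty acids into oxidation, with 4.88. Of these 4 peaks, 2 had a false discovery rate of at most 5%, as did 88.8% of all on-TSS peaks. Mitochondrial respiration and ribosome genes counted 5 of 34 (14.7%), with a median of 8.81, above that of all on-TSS peaks. They were led by the ATP synthase subunit Atp5o with 10.91 and Ndufv1 of complex I with 10.12.

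Secreted hepatocyte proteins and hepatocyte transcription factors had 5 of 38 (13.2%), with a median of 5.73. Ahsg, the gene of the plasma protein fetuin-A, had a fold of 8.91 with 560 tags, the 14th highest tag count of all on-TSS peaks, in a region of 3916 bp. The factor Cebpa had 7.29, the urea cycle enzyme Ass1 5.73, the receptor Nr0b2 4.98 and Foxa2 3.71. None of these lists of liver metabolism and hepatocyte identity had an on-TSS peak with a fold of 10, apart from the mitochondrial list with 2. Of all on-TSS peaks 24.1% reached that fold, but these lists hold at most 5 on-TSS peaks each, too few to compare. Markers of other liver cell types had 0 of 24, which allows a share of up to 14.2% (exact 95% limit), and genes not known in liver 0 of 30, which allows up to 11.6%.

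Most on-TSS genes had no other listed peak. That was so for 962 (83.9%), with a median fold of 6.88, and the 185 others had a median of 6.60. Peaks of these genes outside the on-TSS set numbered 231 at 184 genes, 142 of them inside the gene, and had a median fold of 4.10. The on-TSS peak was the strongest at all but 37 of these 184 genes. Top2a, Ltn1, Kif2c, Rnf168 and Hnrnpab had the highest on-TSS folds among them. At Top2a the other peak lay inside the gene, and the folds were 34.97 on the TSS and 4.37 there. At Kif2c the fold was 29.45 on the TSS, and 2 more peaks upstream had 9.15 and 9.34. Ltn1 had 33.54 and 3.19, Rnf168 28.17 and 4.44, and Hnrnpab 25.9 and 3.63 on the TSS and inside the gene in each case. At 43 on-TSS peaks (3.75%) a further gene entry was listed because the peak lay within it, at Srprb under the same symbol with another identifier, and their median fold was 6.59.

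The name single-promoter was checked against the RefSeq starts. A start on the opposite strand up to 1000 bp upstream, or up to 100 bp downstream, was found for 71 of 785 on-TSS promoters (9.04%, exact 95% interval 7.13% to 11.3%). At promoters that the authors list as shared it was found for 72.4% of 445, and for 12.5% of all 14731 coding windows. The 71 had a median fold of 6.71 (6.06 to 7.85) and the other 714 one of 6.98 (6.75 to 7.28).

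Among chromosomes, the share of listed peaks that were on-TSS peaks ranged from 12.9% on chromosomes 14 and 16 to 28.6% on chromosome X (36 of 126 peaks, exact 95% interval 20.9% to 37.3%), leaving out chromosome Y with 4 listed peaks. Counted per protein-coding gene, chromosome X was low instead, with an on-TSS peak at 3.73% of 966 genes, against 5.20% over all coding genes. Chromosome 2 had the most on-TSS peaks, 110 of 426 (25.8%), and chromosome 14 the fewest among the autosomes, 23 of 178. Their median folds per chromosome, Y again left out, lay between 5.69 on chromosome 18 and 8.42 on chromosome 14.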

How the data were processed

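ChIP-seq of E2F1 and input chromatin from 1 labelled sample each was used as 1 deposited peak list. Reads were aligned with Bowtie2 (2.1.0) on mm9, per the submitters' processing notes, and the file headers name MACS as the peak caller. No source used here gives its version, its settings or how replicates were pooled. Per peak the authors give a whole-number count of tags, the height of the pileup signal, the fold enrichment (a ratio to the background that the caller expects), a score of 10 times the negative log10 of the p-value, and a false discovery rate in percent. The deposited list starts at a score of 50.0. Library totals are not given, so the depth is unknown.

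Coordinates are the file's, counted from 1. Medians have order-statistic and shares exact Clopper-Pearson 95% intervals (Python 3.11.15, scipy 1.17.1), computed with scripts tested on simulated data. Nothing was resampled over peaks. RefSeq (GRCm38.p6) gave gene types and promoter windows, joined by symbol or an unambiguous synonym. The peaks' selection rule and the gene lists were chosen with earlier results of these data known. Named genes are the 15 of highest fold, the 5 of most tags, the 5 of lowest fold and up to 6 per list, plus up to 5 leaders among genes with several peaks; 1 gene that the rule names is not reported here.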

Additional observations from a re-analysis of the deposited data

How the results depend on the processing

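Of 27 alternative values computed for the 5 main results, 19 stayed within the interval of the reported value or, for counts, within 1.5 times of it. With a false discovery rate of at most 5%, which removes weak peaks by construction, the median fold was 7.32 in place of 6.86, the share with a fold of at least 10 was 27.2% in place of 24.1%, and the share with a false discovery rate of at most 1% was 70.4% in place of 62.5%. Regions up to the median width of the list gave 55.7% for that last share, and the cause was not tested. The E2F word share was 34.6% with 7-base words and 23.6% among peaks with a fold of at least 10, in place of 11.7%. The settings chosen after seeing the data gave 11.4% with genes of several promoter windows included and 12.2% in CpG-rich promoters. The count of listed genes was 219 with all promoter peaks and 59 with folds of at least 10, in place of 118; for the 16 single lists these settings moved 10 and 11 counts by over 1.5 times, and the 5% rate moved 1. No paired analysis was possible because the list used here has no values per replicate, and for the same reason no replicate could be left out. Unknown depth and a list that is a selection of the caller's peaks limit all shares.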

Other observations

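Genes taken by the letters of their symbol, a grouping chosen after the values were seen and kept for families with at least 6 on-TSS genes, gave a further view. The Cdc genes had on-TSS peaks at 7 of 32 coding genes (21.9%, median 8.13) and the kinesins named Kif 6 of 38 (15.8%, median 10.29). RNA-binding proteins named Rbm had 8 of 38 (21.1%) but a median of only 5.28, with a highest fold of 7.66 at Rbm8a, a core protein of the exon junction complex. Eif genes had 9 of 56 (16.1%, median 5.19). Zinc finger genes named Zfp were the most numerous, with 26, yet these are 6.55% of 397, near the 5.20% of all coding genes. Solute carriers named Slc had 17 of 375 (4.53%), with a highest fold of 20.21 at Slc7a1, the carrier of cationic amino acids. Coiled-coil genes named Ccdc had 18 of 137 (13.1%, median 8.04).

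Of the 1147 on-TSS genes 1138 were protein-coding, 1 was a long non-coding RNA, 1 a transcribed pseudogene and 7 could not be matched.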
